A study of Mus musculus with 10 samples.

Results

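Iron-sulfur clusters are built in mitochondria by a set of small proteins, and the RNA of 9 genes of this machinery (*Nfs1*, *Lyrm4*, *Iscu*, *Glrx5*, *Isca1*, *Isca2*, *Iba57*, *Bola3* and *Nfu1*) is described here in mouse gastrocnemius muscle. The 9 genes were found by their symbols among the 49315 Ensembl genes of the deposited count table, and all 9 were among the 14714 genes with enough counts to be tested. They were grouped by function, but the group was chosen by a measured value as well, because the levels of *Glrx5* did not overlap between the genotypes. The contrast between genotypes is therefore given for these genes as a description: no p is printed for them, and the counts of members past a threshold stand only beside the share of all genes past it. Of the members, *Glrx5* and *Iscu* had lower values in AHRmKO than in AHRfl/fl muscle in every mouse, at 64.6% and 81.7% of the AHRfl/fl mean. The other 7 members overlapped between the genotypes, with AHRmKO means between 89.2% and 100.1% of the AHRfl/fl mean, and 1.4% of all genes tested did not overlap.

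RNA was sequenced from 10 male mice on a C57BL6J background, 5 AHRfl/fl (AHR-floxed, with loxP sites in both *Ahr* alleles and no Cre) and 5 AHRmKO (the same floxed *Ahr* with the HSA-MCM transgene, a tamoxifen-dependent Cre fused to oestrogen receptor domains under the human ACTA1 promoter, which acts in skeletal myofibres). Every mouse of both genotypes breathed cigarette smoke for 16 weeks, on 5 days per week in 2 sessions of 1 h per day at 220 ± 80 mg/m3, and the muscle was taken 72 h after the last exposure according to the series' design text. Smoke began 4 weeks after tamoxifen according to the labels, though the study's text is not uniform on this interval or on the time of harvest. The labels speak of tamoxifen for AHRmKO mice and give no age, and the study's text counts the start of smoke from tamoxifen for AHRmKO mice and their AHRfl/fl littermates alike. No air-exposed mice were analysed here, so the values compare genotypes after smoke and do not show what smoke does.

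Total counts per mouse lay between 30393035 and 37954388, and genes of the mitochondrial genome took between 7.34% and 11.5% of them. AHRfl/fl mouse 33 had the lowest total and counts on 25494 genes, where the other 9 mice had between 21296 and 23833. *Ddx3y*, on the Y chromosome, had at least 1852 counts in every mouse, the sex the series' design text gives. The 8 myofibre markers, among them *Acta1*, *Ckm* and *Myh4*, had counts in every mouse and summed to between 128161 and 178183 CPM (each count divided by the TMM-normalized library size). The targeted gene, *Ahr*, was at 2.02 ± 0.681 CPM (SD, n = 5) in AHRfl/fl and 1.58 ± 0.443 CPM (SD, n = 5) in AHRmKO muscle, and the genotypes overlapped. Counts summed over all exons of *Ahr* do not isolate the floxed exon, and RNA of cells other than myofibres is part of the sample.

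An iron-sulfur cluster is a small cage of iron and inorganic sulfide that proteins hold through cysteines. In mitochondria, NFS1 takes sulfur from cysteine, LYRM4 (ISD11) holds NFS1 stable, and ISCU is the scaffold on which the cluster forms. GLRX5, a monothiol glutaredoxin, receives the new cluster from ISCU and passes it on. ISCA1, ISCA2 and IBA57 act later, in making the larger clusters, and BOLA3 and NFU1 help to place clusters in their targets, lipoate synthase among them. Muscle needs these clusters for complexes I, II and III of the respiratory chain, and inherited loss of ISCU function in people is known for exercise intolerance.

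The AHR with its partner ARNT binds DNA at the core GCGTG, so the windows before the members' start sites were searched for it. The windows run from 250 bases before to 50 bases after each RefSeq start (GRCm38.p6) and were present for 8 of the 9 members, *Iscu* being the one with no entry. GCGTG was found on either strand in 5 of the 8 (*Glrx5*, *Nfs1*, *Isca2*, *Iba57* and *Lyrm4*), and in 35.2% of the 27025 genes with a window. The longer TTGCGTG, which holds GCGTG within it, was found in 1 of the 8, *Glrx5*, and in 1.35% of all genes with a window. These are matches of letters, not measured binding, and they were not tested against the expression values. The 250 bases before the RefSeq start of *Glrx5* are shown because *Glrx5* differed most between the genotypes. That start lies upstream of the GENCODE start, 105032688. The bases shown lie at chr12:105032368-105032617 on the plus strand, and capitals mark CACGC, which is GCGTG read on the other strand.

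*Glrx5*: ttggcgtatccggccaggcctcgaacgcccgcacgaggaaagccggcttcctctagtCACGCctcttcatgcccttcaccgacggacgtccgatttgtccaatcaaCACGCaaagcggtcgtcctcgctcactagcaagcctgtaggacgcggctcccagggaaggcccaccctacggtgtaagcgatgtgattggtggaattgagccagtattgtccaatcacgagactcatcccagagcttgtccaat

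The second match in *Glrx5*, whose first base lies 144 bases before the RefSeq start, is the one that extends to TTGCGTG on the other strand. For comparison, a match from each of the other 4 members is shown with up to 10 bases on either side, read along the gene's own strand, again with the core in capitals. The *Nfs1* match lies at chr2:156144303-156144327, that of *Isca2* at chr12:84773181-84773205, that of *Iba57* at chr11:59163758-59163782, where a further match shares its last base, and that of *Lyrm4* at chr13:36117578-36117602.
*Nfs1*: gaggaccccgCACGCgcgacgcagg
*Isca2*: acccaataggCACGCttgggggcgg
*Iba57*: ctttccccccCACGCacgcgcgtcg
*Lyrm4*: ggtgtaggggGCGTGgtgtcaggag

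*Glrx5* (ENSMUSG00000021102) is annotated in GENCODE M21 (GRCm38) at positions 105032688 to 105042906 of chromosome 12, plus strand. It had 77.6, 80.9, 84.9, 71.6 and 85.9 CPM in AHRfl/fl mice 11, 12, 13, 15 and 33. In AHRmKO mice 8, 9, 19, 22 and 34 it had 36.3, 52.5, 48.9, 51.0 and 70.2 CPM. All 5 AHRmKO mice were below all 5 AHRfl/fl mice, but by a narrow margin: the highest AHRmKO mouse, mouse 34, was at 98.0% of the lowest AHRfl/fl mouse, mouse 15. The means were 80.2 ± 5.83 CPM (SD, n = 5) and 51.8 ± 12.1 CPM (SD, n = 5), a log2 fold change of -0.63 with a standard error of 0.137. Between 1381 and 3011 reads per mouse stand behind these values. The log2 fold change was -0.53 without AHRmKO mouse 8, the lowest mouse, and -0.77 without AHRmKO mouse 34.

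*Iscu* (ENSMUSG00000025825), the scaffold from which GLRX5 takes its cluster, is annotated at positions 113772748 to 113778288 of chromosome 5, plus strand. The AHRfl/fl mice had 121.1, 126.1, 124.3, 116.5 and 118.5 CPM, in the order of animals given for *Glrx5*. The AHRmKO mice had 75.4, 103.0, 104.1, 102.4 and 110.5 CPM. The genotypes did not overlap, and 4 of the 5 AHRmKO mice lay close to each other, with mouse 8 far below them. The means were 121.3 ± 3.99 CPM (SD, n = 5) and 99.1 ± 13.6 CPM (SD, n = 5), a log2 fold change of -0.29 with a standard error of 0.0894. Without AHRmKO mouse 8 it was -0.21. A processed pseudogene with 98.4% identity to *Iscu* over 504 nt, *Gm16437* on chromosome 19, is annotated. It had between 2 and 19 counts, and reads that fit both places are not counted for either. Stretches of 181 and 167 nt of *Iscu* are also at least 95% identical to *Slc2a3* and *Tulp3*.

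**Figure D1:**
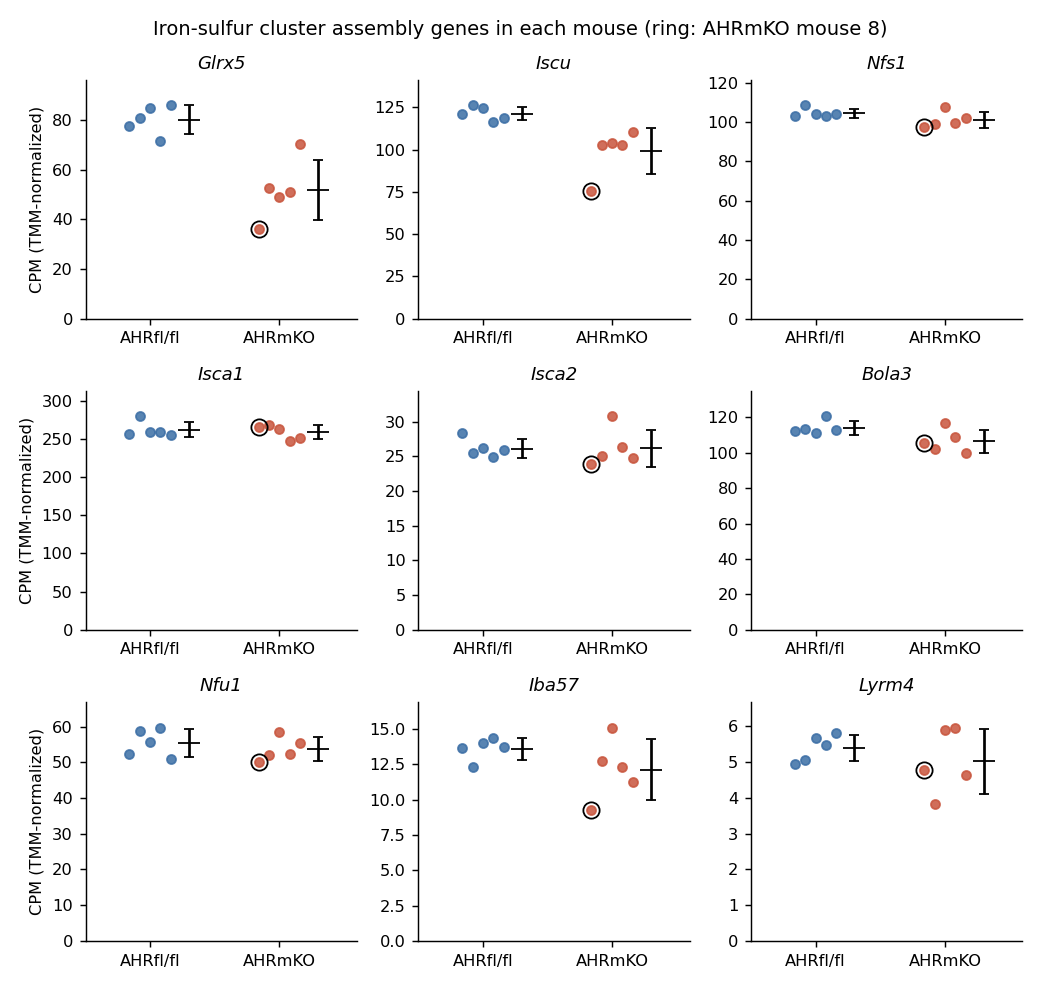
CPM (y axis, TMM-normalized) of each of the 9 genes in 5 AHRfl/fl and 5 AHRmKO mice; points are mice, the dash and bar are the mean and SD of a genotype, and the ring marks AHRmKO mouse 8. *Glrx5* and *Iscu* do not overlap between genotypes, with mouse 8 lowest at 36.3 and 75.4 CPM, and the other 7 genes overlap; 1.4% of all genes tested do not.

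Non-overlap of the genotypes, in either direction, was found for 2 of the 9 members and for 1.4% of the 14714 genes tested. After Benjamini-Hochberg adjustment, edgeR's quasi-likelihood test called 0 of the 9 members and 0.0068% of all genes at 0.05, which is 1 gene, *Esr1*, part of which the Cre transgene carries. The unadjusted p of that test was under 0.05 for 2 of the 9 members, *Glrx5* and *Iscu*, and for 6.61% of all genes. The DESeq2 Wald test called 1 of the 9, *Glrx5*, and 0.193% of the 10858 genes to which it gave an adjusted p. Without AHRmKO mouse 34, edgeR also called 1 of the 9, *Glrx5*, and 6 of the 14962 genes then tested. Because *Glrx5* was noted for this contrast, nothing is read from these counts about the members. The values are per total RNA of the muscle, so that fewer cells with the RNA and less RNA per cell cannot be told apart.

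*Nfs1* and *Lyrm4*, the desulfurase and its stabilizer, differed less than *Iscu* did. *Nfs1* (ENSMUSG00000027618, chromosome 2, minus strand, 156123639 to 156144186) was at 104.5 ± 2.27 CPM in AHRfl/fl and 101.1 ± 4.01 CPM in AHRmKO muscle (SD, n = 5 each), and the log2 fold change, with its standard error, was -0.05 ± 0.0531. In 4 of the 5 AHRmKO mice it was below all AHRfl/fl mice, and mouse 19, at 107.7 CPM, was within their range. *Lyrm4* (ENSMUSG00000046573, chromosome 13, minus strand, 35978395 to 36117526) had the lowest CPM of the members, from 4.95 to 5.81 in AHRfl/fl and from 3.83 to 5.97 in AHRmKO muscle. The fitted log2 difference was -0.10 ± 0.133 (standard error), and -0.02 without AHRmKO mouse 9, -0.16 without mouse 19 and -0.17 without mouse 22. The AHRmKO mice lay on both sides of the AHRfl/fl range. Both genes overlap an exon of a neighbour on the opposite strand, *Romo1* by 148 nt for *Nfs1* and *Fars2* by 115 nt for *Lyrm4*. Counting used strand only if the libraries kept it, and whether they did is not given in the sources used here, so reads in these stretches are uncertain. *Gm28036*, on the strand of *Nfs1*, shares 256 nt of exon with it and had at most 3 counts.

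The late-acting genes had near equal means for the *Isca* pair. *Isca1* (ENSMUSG00000044792, chromosome 13, minus strand, 59755409 to 59769810) had the highest CPM of the 9, at 262.1 ± 9.94 in AHRfl/fl and 259.4 ± 9.08 in AHRmKO muscle (SD, n = 5 each). Its log2 fold change of -0.01 had a standard error of 0.0569, and its direction turned without AHRfl/fl mouse 12 (0.01) and without AHRmKO mouse 22 (0.0009). An antisense gene, *Etohd2*, overlaps its exons by 314 nt, and *Gm49354*, on the strand of *Isca1*, shares 115 nt of exon with it. A gene with 99.0% identity over 1914 nt, *AK157302*, had between 8 and 28 counts, so that reads of *Isca1* shared with it are left out of both. *Isca2* (ENSMUSG00000021241, chromosome 12, plus strand, 84773251 to 84775088) was at 26.1 ± 1.30 and 26.1 ± 2.71 CPM (SD, n = 5 each), and the fitted log2 difference was 0.0014 ± 0.0753 (standard error). Its direction turned with library size alone (-0.0188), with limma-voom (-0.0036) and without any of AHRfl/fl mice 12, 15 and 33 and AHRmKO mice 19 and 22, to as low as -0.06.

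*Iba57* (ENSMUSG00000049287, chromosome 11, minus strand, 59155369 to 59163739) ranged from 12.3 to 14.4 CPM in AHRfl/fl and from 9.25 to 15.1 CPM in AHRmKO muscle. Both the lowest and the highest of the 10 mice were AHRmKO, mouse 8 and mouse 19. The log2 fold change was -0.17 (standard error 0.111), -0.08 without mouse 8 and -0.25 without mouse 19.

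The carriers *Bola3* and *Nfu1* also overlapped between the genotypes. *Bola3* (ENSMUSG00000045160, chromosome 6, plus strand, 83349147 to 83360136) was at 114.0 ± 3.76 CPM in AHRfl/fl and 106.5 ± 6.53 CPM in AHRmKO muscle (SD, n = 5 each), and the fitted log2 difference was -0.10 ± 0.0594 (standard error). As for *Nfs1*, 4 AHRmKO mice were below all AHRfl/fl mice and mouse 19, at 116.5 CPM, was not. *Nfu1* (ENSMUSG00000029993, chromosome 6, plus strand, 87009236 to 87028461) was at 55.5 ± 3.90 and 53.7 ± 3.33 CPM (SD, n = 5 each), and the fitted log2 difference was -0.05 ± 0.0665 (standard error), and from -0.08 without AHRfl/fl mouse 33 or AHRmKO mouse 19 to -0.02 without AHRfl/fl mouse 15 or AHRmKO mouse 8. A processed pseudogene, *Gm7859*, is 95.7% identical to it over 771 nt. With AHRmKO mouse 19 left out, the members whose genotypes did not overlap were 4 in place of 2, and the share of all genes tested that did not overlap was 3.19% in place of 1.4%.

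**Figure D2:**
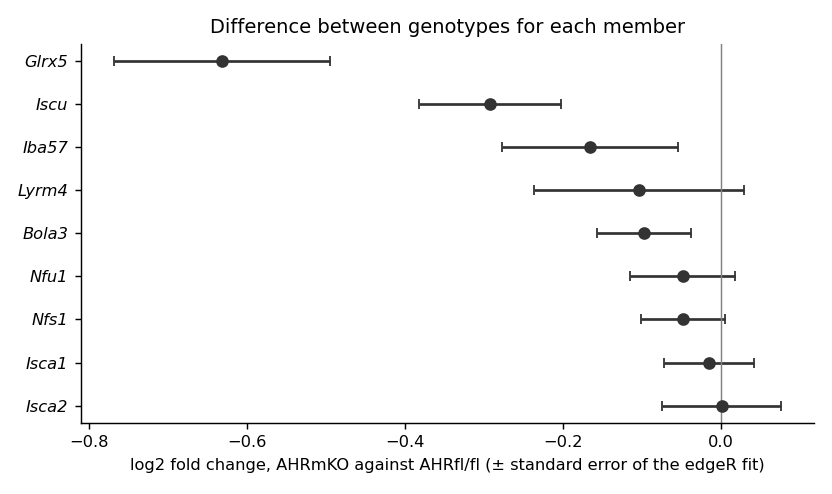
Log2 fold change of each member, AHRmKO against AHRfl/fl (x axis; points, with bars for the standard error of the edgeR fit). *Glrx5* (-0.63) and *Iscu* (-0.29) lie farthest from 0, and 8 of the 9 estimates are below 0.

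Of the 9 estimates, 8 were below 0, where 48.5% of all genes tested were. The median log2 fold change of the members was -0.10, beside 0.01 for all genes tested. Leaving out AHRmKO mouse 9 brought the median of the members to -0.04.

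AHRmKO mouse 8 was the lowest of all 10 mice for 6 of the 9 members (*Glrx5*, *Iscu*, *Nfs1*, *Isca2*, *Nfu1* and *Iba57*). It was not the lowest for *Isca1*, *Bola3* or *Lyrm4*. The same mouse had the highest sum of the 6 slow-fibre markers, 1756 CPM, where the AHRfl/fl mice ranged from 58.5 to 1423 CPM and the AHRmKO mice from 142.6 CPM upward. Its endothelial markers were the highest of the 10 mice, at 225.3 CPM, and its erythroid markers the second highest, at 429.9 CPM. Over the genotypes, the 4 endothelial markers ranged from 116.5 to 178.4 CPM in AHRfl/fl and from 129.2 to 225.3 CPM in AHRmKO muscle, and the 7 erythroid markers from 105.6 to 322.7 CPM and from 143.7 to 483.6 CPM. The medians in AHRfl/fl and AHRmKO muscle were 166.4 and 420.6 CPM for the slow-fibre and 116.7 and 207.0 CPM for the erythroid markers. Endothelial and Schwann cell markers had lower medians in AHRmKO muscle, 167.8 and 150.2 CPM and 80.6 and 64.3 CPM. All markers of these lists had counts in every mouse. The 8 genes read for mitochondrial content, among them *Cs* for citrate synthase, ranged from 3104 to 3245 CPM and from 3029 to 3315 CPM, and mouse 8, at 3067 CPM, was the second lowest. Adipocyte, macrophage and Schwann cell markers summed to no more than 57.9, 16.5 and 104.6 CPM in any mouse. For Schwann cell markers mouse 8 was the second highest, at 97.7 CPM. The part of fibre type and of other cells in the members' values was not tested.

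**Figure D3:**
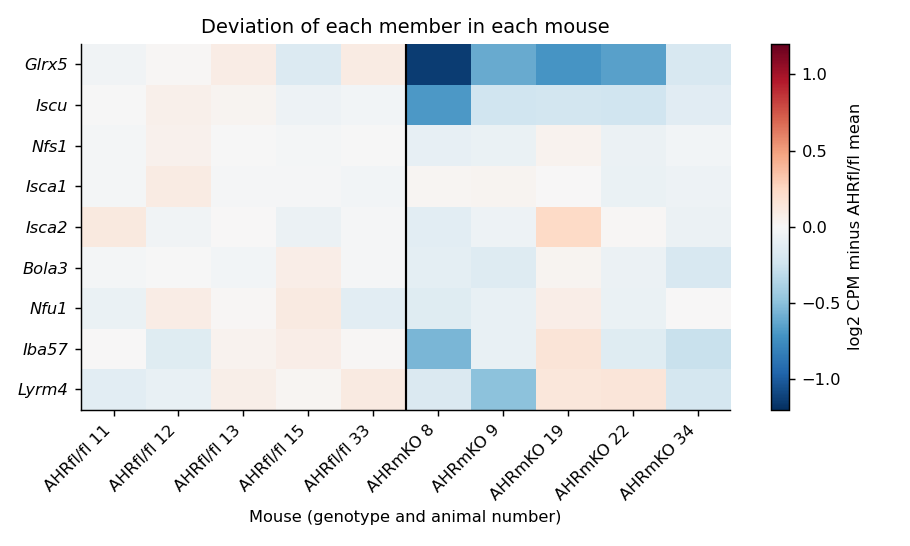
Log2 CPM of each member (rows) in each mouse (columns, genotype and animal number) minus the mean of the AHRfl/fl mice, blue for lower and red for higher; the black line separates the genotypes. The strongest blue is *Glrx5* in AHRmKO mouse 8, and *Glrx5* and *Iscu* are blue in all 5 AHRmKO mice.

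The members varied more between AHRmKO than between AHRfl/fl mice in 7 of 9 cases, *Isca1* and *Nfu1* being the exceptions, where 55.0% of all genes did. The median coefficient of variation of the 9 was 4.99% in AHRfl/fl and 10.4% in AHRmKO muscle, beside 13.2% and 14.2% for all genes. That of *Glrx5* was 7.28% and 23.5%, and that of *Iscu* 3.29% and 13.8%. Without AHRmKO mouse 8, the median of the members in AHRmKO muscle was 7.02%, with 7 of the 9 above their value in AHRfl/fl muscle, beside a median of 13.1% and a share of 49.6% above for all genes.

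Levels of different genes were compared as CPM per kilobase of exon. *Iscu* was the highest, with a median over the 10 mice of 52.2 CPM per kilobase (range 34.6 to 58.0). *Bola3* followed with 34.7, *Nfs1* with 28.5, *Isca1* with 24.3, *Glrx5* with 19.3, *Isca2* with 13.9 and *Nfu1* with 11.2. *Iba57* and *Lyrm4*, at 2.70 and 2.53, were the lowest. The desulfurase RNA thus stood at a higher level than that of its stabilizer in every mouse. The ranges over the mice overlapped for 4 pairs of neighbours in this order. Within mice, *Iscu* was nevertheless above *Bola3*, and *Isca1* above *Glrx5*, in 10 of 10, whereas *Glrx5* was above *Isca2* in 7 and *Iba57* above *Lyrm4* in 8 of the 10. The medians pool the genotypes, and the mice with *Glrx5* below *Isca2* were all AHRmKO. The mean of *Glrx5* was 21.78 CPM per kilobase in AHRfl/fl and 14.06 in AHRmKO muscle, and that of *Isca2* 14.21 and 14.23. Among all genes tested with a known length, 7 of the members were above at least 82.5% and *Iba57* and *Lyrm4* above 57.0% and 55.5%. *Isca1* depended most on the length used, since its exons sum to 10680 nt and its longest transcript to 4060 nt. Per kilobase of the longest transcript it stood at 63.8, the second highest after *Iscu* at 81.4. With that length *Nfs1* (50.2) was above *Bola3* (48.2), in all but 1 of the mice, and *Nfu1* (21.5) above *Isca2* (16.1) in 10 of 10.

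**Figure D4:**
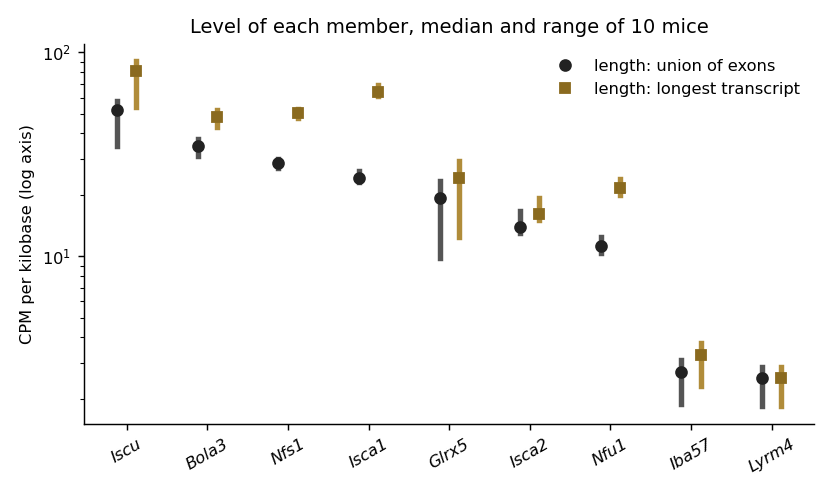
CPM per kilobase (y axis, log scale) of each member over 10 mice; symbols are medians and bars the lowest to highest mouse, with the length taken as the union of exons (circles) or the longest transcript (squares). *Iscu* is highest and *Iba57* and *Lyrm4* are lowest with either length, and *Isca1* moves most.

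Whether members rose and fell together from mouse to mouse was asked over their 36 pairs, with log2 CPM over the 10 mice. Pearson's r was above 0 in 31 pairs, with a median of 0.44. These values hold the difference between genotypes too, and with the mean of each genotype subtracted the median was 0.33. In two-sided permutation tests on the values so centred, adjusted by Benjamini-Hochberg over the 36 pairs, 0 pairs passed 0.05. For *Glrx5* with *Iscu* no pooled r or p is given, since the genotypes do not overlap in either gene. With the genotype means subtracted, r was 0.86 and Spearman's rho 0.48 for this pair, and r was 0.74 without AHRmKO mouse 8. Of the other pairs, *Nfs1* with *Nfu1* had the highest r over the pooled mice, with r = 0.72 (permutation p = 0.0208, adjusted 0.218) and rho = 0.64 (permutation p = 0.0543, adjusted 0.27), and r was 0.53 without the 2 mice farthest from the median of *Nfs1*. The lowest r was -0.38, for *Isca1* with *Lyrm4*, with rho = -0.38 (permutation p = 0.284 for r and 0.277 for rho, adjusted 0.486 and 0.499), and r was -0.37 without the 2 mice farthest from the median of *Isca1*.

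The genes whose pattern was most like that of *Glrx5* were ranked by Pearson's r over the 10 mice after the genotype means were subtracted. They were *Bri3* (r = 0.98), *1700016A09Rik* (0.98), *Coil* (0.97), *Bag1* (0.96) and *Endog* (0.96). *Bag1* encodes a cochaperone of HSP70 and *Endog* the mitochondrial endonuclease G, whereas *Coil* encodes the Cajal body protein coilin. These are the highest of 14713 values and are given as a description, with no p. *Iscu* ranked 98 in this order, and the other 7 members ranked from 3975 to 11798. *Bri3* was at 26.8 ± 1.69 CPM in AHRfl/fl and 14.1 ± 5.00 CPM in AHRmKO muscle (SD, n = 5 each), and *Endog* at 37.9 ± 2.61 and 26.3 ± 8.51 CPM (SD, n = 5 each). *Bag1* was at 170.2 ± 8.86 and 134.9 ± 18.9 CPM (SD, n = 5 each). *1700016A09Rik* had near equal means of 0.447 and 0.438 CPM. *Coil*, with 5.35 and 6.08 CPM, had the higher mean in AHRmKO muscle, the direction opposite to *Glrx5*. Without AHRmKO mouse 8, r of the 5 genes with *Glrx5* lay between 0.92 and 0.98.

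Lists of genes around this machinery held 89 further genes, of which 85 were tested. At an adjusted 0.05, edgeR called 0 of the 85 and the DESeq2 Wald test 0 of the 81 to which it gave an adjusted p, and the unadjusted p of edgeR was under 0.05 for 8, beside 6.61% of all genes. Their median log2 fold change was -0.01, with 41 above and 44 below 0. The genotypes did not overlap in 2 of the 85, *Fdx1* and *Cisd2*, beside 1.4% of all genes, and both are named for that reason after their values were seen. The list medians given next moved with single mice and with the scaling. With library size alone, the median was -0.05 for the mitochondrial partners, -0.03 for the other mitochondrial iron-sulfur proteins and -0.04 for the lipoate list. It was 0.02 for iron uptake, storage and sensing and -0.06 for heme synthesis. On leaving out a mouse, that of the mitochondrial partners ran from -0.05 (without AHRmKO mouse 19) to -0.0048 (without AHRmKO mouse 34), and that of the respiratory chain from -0.13 (without AHRfl/fl mouse 12) to -0.04 (without AHRmKO mouse 34). That of iron uptake, storage and sensing ran from 0.0014 (without AHRfl/fl mouse 15) to 0.06 (without AHRmKO mouse 8), that of heme synthesis from -0.06 (without AHRfl/fl mouse 13) to -0.0052 (without AHRmKO mouse 8), and that of the cytosolic and nuclear proteins was 0.06 without AHRfl/fl mouse 33.

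Of 13 tested partners of mitochondrial assembly, 4 had estimates above and 9 below 0, with a median log2 fold change of -0.03. *Fdx1*, a ferredoxin that carries electrons, ranged from 23.2 to 28.2 CPM in AHRfl/fl and from 15.1 to 23.1 CPM in AHRmKO muscle, lowest in mouse 8 (log2 fold change -0.31, adjusted p = 0.665 from edgeR). *Fdx2*, listed as *Fdx1l*, had between 4 and 24 counts and was not tested. The chaperones that help to release the cluster from ISCU, *Hscb* and *Hspa9*, had log2 fold changes of -0.01 and 0.01. The mitoferrins, which bring iron into mitochondria, had estimates of -0.29 (*Slc25a28*) and 0.21 (*Slc25a37*), with adjusted p of 0.628 and 0.665 from edgeR.

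Of the 8 tested iron-sulfur proteins of the respiratory chain, all had estimates below 0, where 48.5% of all genes tested did. They were measured in the same mice and are not independent. Their median log2 fold change was -0.08 (range -0.20 to -0.01), beside 0.01 for all genes tested. The largest was *Uqcrfs1*, the Rieske protein of complex III, at 406.4 ± 16.5 CPM in AHRfl/fl and 354.9 ± 46.1 CPM in AHRmKO muscle (SD, n = 5 each; adjusted p = 0.734 from edgeR). *Sdhb* of complex II and *Ndufs1* of complex I had log2 fold changes of -0.06 and -0.01. Of 7 other mitochondrial iron-sulfur proteins, 4 were below 0 (median -0.01, from -0.05 without AHRfl/fl mouse 12 to 0.01 without AHRfl/fl mouse 33). *Lias*, lipoate synthase, had -0.08, *Cisd1* of the outer membrane -0.11 and *Fech*, the last enzyme of heme synthesis, 0.04. For the 9 genes of lipoate synthesis and lipoylated proteins the median was -0.02, turning to as high as 0.0029 with a mouse left out. *Dlat*, a lipoylated subunit of the pyruvate dehydrogenase complex, had 0.10. The adjusted p values of these 3 lists were at least 0.734 in edgeR.

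The 11 genes of cytosolic assembly had a median log2 fold change of 0.0024, 6 above and 5 below 0, and *Ciao1*, of the targeting complex, was at 35.4 ± 1.01 and 35.4 ± 2.71 CPM (SD, n = 5 each). The direction of that median turned with library size alone (-0.0165), with limma-voom (-0.0005) and with a mouse left out (as low as -0.03). Of 17 tested cytosolic and nuclear iron-sulfur proteins, 14 had estimates above 0, where 48.5% of all genes tested were below 0. These genes too are not independent. The median was 0.09, beside 0.01 for all genes tested. *Cisd2*, of the endoplasmic reticulum, had lower values in all 5 AHRmKO mice, at 44.5 ± 0.78 CPM beside 47.5 ± 1.73 CPM in AHRfl/fl mice (SD, n = 5 each; log2 fold change -0.10, adjusted p = 0.792 from edgeR).

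Among 14 tested genes of iron uptake, storage and sensing, 9 had estimates above and 5 below 0 (median log2 fold change 0.03). *Tfrc*, the transferrin receptor, had -0.25, *Fth1*, ferritin heavy chain, -0.10, and *Ireb2*, whose protein binds both of these RNAs, 0.08. In this order, their adjusted p from edgeR were 0.839, 0.879 and 0.879. The highest estimate of the list was that of *Ncoa4*, 0.32 (adjusted p = 0.606 from edgeR), a gene named after its values were seen. Of 9 genes of heme synthesis, 6 were below 0 (median -0.04). *Alas1*, the first enzyme of the pathway outside red cells, was at 133.3 ± 11.2 CPM in AHRfl/fl and 112.3 ± 9.01 CPM in AHRmKO muscle (SD, n = 5 each; log2 fold change -0.25, adjusted p = 0.606 from edgeR). *Alas2*, its erythroid form, was at 3.72 ± 1.72 and 4.97 ± 3.33 CPM (SD, n = 5 each).

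**Figure D5:**
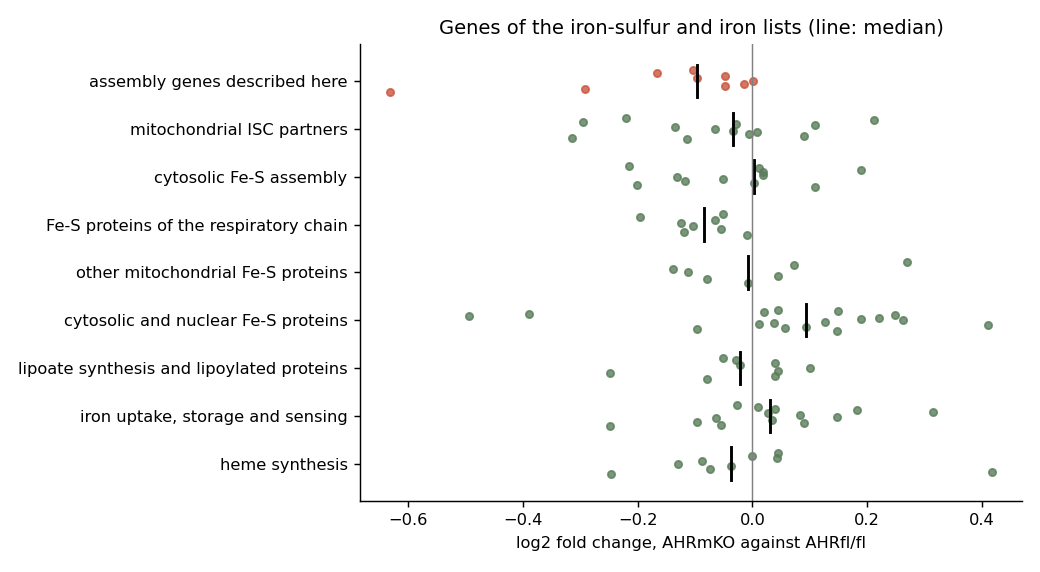
Log2 fold change, AHRmKO against AHRfl/fl (x axis), of every tested gene of the 9 members (top, "assembly genes described here") and of 8 further lists; points are genes, black lines medians, and ISC stands for mitochondrial iron-sulfur cluster assembly. *Glrx5* is the point farthest to the left at -0.63, and list medians lie between -0.10 and 0.09.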

How the data were processed

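The authors made poly(A)-selected libraries, used Trimmomatic 0.36 for trimming and STAR for mapping to GRCm38, counted unique reads on the exons of each gene with featureCounts, and deposited raw counts, 1 column per mouse. Whether the libraries were stranded is not given in the sources used here. All 10 columns were used.

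Of the 49315 identifiers, 49056 were matched to GENCODE M21 (GRCm38) for names, positions and lengths. Genes were kept by filterByExpr (minimum count 10, minimum total 15), normalized by TMM and compared between genotypes by edgeR 4.0.16 (R 4.3.3) with the robust quasi-likelihood test and Benjamini-Hochberg adjustment over 14714 genes. Log2 CPM used a prior count of 2. Correlations used 100000 permutations. Copies of members were sought with blastn among annotated transcripts (at least 95% identity over 150 nt). Promoter windows are from RefSeq. Alternatives were DESeq2 1.42.0, limma-voom 3.58.1, DESeq2 size factors, library size alone, no mtDNA genes, other filters and leaving out each mouse. The fits were also run on simulated data, but no outcome of that is given here and nothing is read from it.

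The members, lists and named genes were chosen with earlier results of these data known. Named genes are the members, *Ahr*, list genes picked by role (some are not reported here), and the 5 genes most like *Glrx5*; *Esr1*, *Fdx1* and *Cisd2* were added after their values were seen. Each library is 1 animal, and the spread is that between mice.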

Additional observations from a re-analysis of the deposited data

Results flagged for a closer look

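In each genotype, the highest and the lowest mouse of each member were compared with the nearest other mouse on the log2 scale. Of the 18 sets of 5 values, 4 had a value apart by more than 0.71 of their range, in 3 different mice. Chance gives about 1 in 20 such sets, or 0.9 of the 18, if the sets were independent, which they are not, since the 9 genes were measured in the same mice. *Iscu* in AHRmKO mouse 8, at 75.4 CPM, lay below the rest of its genotype, the gap taking 0.8018 of the range. *Isca1* in AHRfl/fl mouse 12, at 279.6 CPM, lay above the others with a gap of 0.839, and *Nfs1* in the same mouse, at 108.4 CPM, with a gap of 0.7561. *Bola3* in AHRfl/fl mouse 15, at 120.5 CPM, lay above the others with a gap of 0.7252. AHRfl/fl mouse 12 had the lowest share of mtDNA counts, 7.34%, and the lowest *Myh7*, 3.32 CPM. The part of these in the members' values was not tested.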

How the results depend on the processing

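No paired analysis was possible because no animal number occurs in both genotypes. The number of genes called was 1 in edgeR, 21 with DESeq2, 5 without the low-count filter, and 1 to 6 on leaving out a mouse (6 without AHRmKO mouse 34). The number of members called was 0, beside 0.0068% of all genes, and 1 with DESeq2, beside 0.193% of the 10858 genes with an adjusted p. It was 0 to 1 on leaving out a mouse (*Glrx5*, without AHRmKO mouse 34, beside 6 of the 14962 genes then tested). Because *Glrx5* was noted for this contrast, nothing is read from these counts about the members. From 2 to 4 members did not overlap with a mouse left out (4 without AHRmKO mouse 19), beside 1.8% to 3.19% of all genes. With no mouse left out, 2 members did not overlap, beside 1.4% of all genes in the main setting. The number of members was also 2 in the 5 other settings in which it was counted, which do not include the DESeq2 Wald test or limma-voom. No pair of members (0) passed with genotype means subtracted. The longer motif TTGCGTG was in 1 member in place of 5. For DESeq2 and the filter the cause was not tested. Of 153 values of single members over the alternatives, 9 changed sign, all for *Isca1* or *Isca2*, and of 136 list medians 16 did. Leaving out 2 mice for the pairs gave r only, not a count. Depth limits *Lyrm4* most, with 141 to 227 counts per mouse.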
